A study of Mus musculus with 48 samples.

Results

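Kinesins, cytoplasmic dyneins and dynactin are the microtubule motors of the neuron, and the m6A peaks on their transcripts were described here in the hippocampus of a Huntington's disease mouse. The genes were chosen by symbol alone, as the protein-coding genes of the mm9 annotation whose symbol starts with Kif and a digit, Klc, Dync or Dctn. This gave 55 of 22380 protein-coding genes, with 38 Kif, 4 Klc, 7 Dync and 6 Dctn genes. Of them 46 had at least 1 m6A peak in at least 1 mouse (13874 genes did in the whole series), and their peaks merged into 310 of 81807 peak regions. The study used m6A-specific RNA immunoprecipitation with sequencing (MeRIP-seq), in which RNA fragments bound by an m6A antibody are sequenced beside the unselected input.

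The 24 animals were male mice on a C57BL/6 background, and each gave an m6A-IP and an input library from its hippocampus, 48 libraries in all. Heterozygous Hdh+/Q111 mice, called KI, carry a targeted CAG repeat insertion in 1 copy of the murine Htt gene under its own promoter, and WT mice are HdhQ7/Q7. Mice were 5 or 8 months old. Trained mice were placed in the object location task, a hippocampal spatial task, and sacrificed 30 min later, and naive mice were not trained. The 8 conditions were thus trained KI, trained WT, naive KI and naive WT mice at each age, with 3 animals in each, and every replicate was a separate animal.

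Kinesins carry vesicles, organelles and RNA granules mostly towards the plus end of microtubules, which lies at the tip of the axon. Cytoplasmic dynein, with its activator dynactin, carries cargo back to the cell body. Huntingtin itself is a scaffold that joins vesicles to both kinds of motor. The mark m6A is deposited co-transcriptionally, mostly in long internal exons and around the stop codon, on adenosines within a short consensus of which GGAC is a common form.

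The mouse lists held between 22601 and 57293 peaks each. A peak region close to the start of Htt, in its first intron at chr5:35104810-35105427, was present in the lists of 12 of 12 KI mice and absent from those of 12 of 12 WT mice, as the genotype labels have it. Markers of CA1 pyramidal neurons were marked in 4 to 5 of 5 genes per mouse, and those of the dentate gyrus, CA3, astrocytes, oligodendrocytes, microglia and endothelium in 2 or more of each list in every mouse. Of 8 choroid plexus markers, 2 to 7 carried a peak, most often in naive KI mice of 5 months (5 to 7, against 2 to 6 in naive WT mice of that age), while Ttr had none in any mouse. Of 8 striatal markers 6 to 7 carried a peak, with Tac1 in no mouse. The part of these cells in the results below was not tested. The depth of the libraries is not in the files, so the number of peaks was the only measure of yield. RNA can carry m6A where no peak was called. The inputs were not analysed here, so more m6A and more mRNA cannot be told apart in the tables that compare conditions, and in bulk hippocampus neither can fewer cells of a type and less RNA per cell.

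Motor gene regions made up 0.248% to 0.419% of the peak regions of a mouse. At 5 months, trained KI mice had 94, 78 and 101 such regions, against 70, 59 and 64 in trained WT mice. Naive KI mice of 5 months had 110, 99 and 78, against 88, 70 and 71 in naive WT mice. KI mice lay above every WT mouse of their group in the trained pair, and the groups overlapped in the naive pair. In the trained pair the whole lists separated too, with 36588, 32076 and 37964 peaks in KI mice and 26795, 22601 and 27906 in WT mice. The share of motor regions overlapped there, at 0.299%, 0.257% and 0.293% in KI mice and 0.282%, 0.292% and 0.261% in WT mice. At 8 months, trained KI mice had 85, 130 and 93 regions, against 82, 106 and 124 in trained WT mice. Naive KI mice of 8 months had 165, 113 and 211, against 82, 137 and 109 in naive WT mice. Both 8-month pairs overlapped. The whole peak lists moved with these counts, since trained WT mice of 5 months had the fewest peaks (25767 ± 2797.8, SD, n = 3) and naive KI mice of 8 months the most (48992 ± 9959.9, SD, n = 3). In 5 mice, all of 8 months, the median peak was shorter than 250 bp (172 to 233 bp), and these had 124 to 211 motor regions with a median of 137. The other 19 mice had 59 to 113 with a median of 85. Among mice of 8 months without these 5 the median was 93 (n = 7), against 78 in the 12 mice of 5 months.

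**Figure D1:**
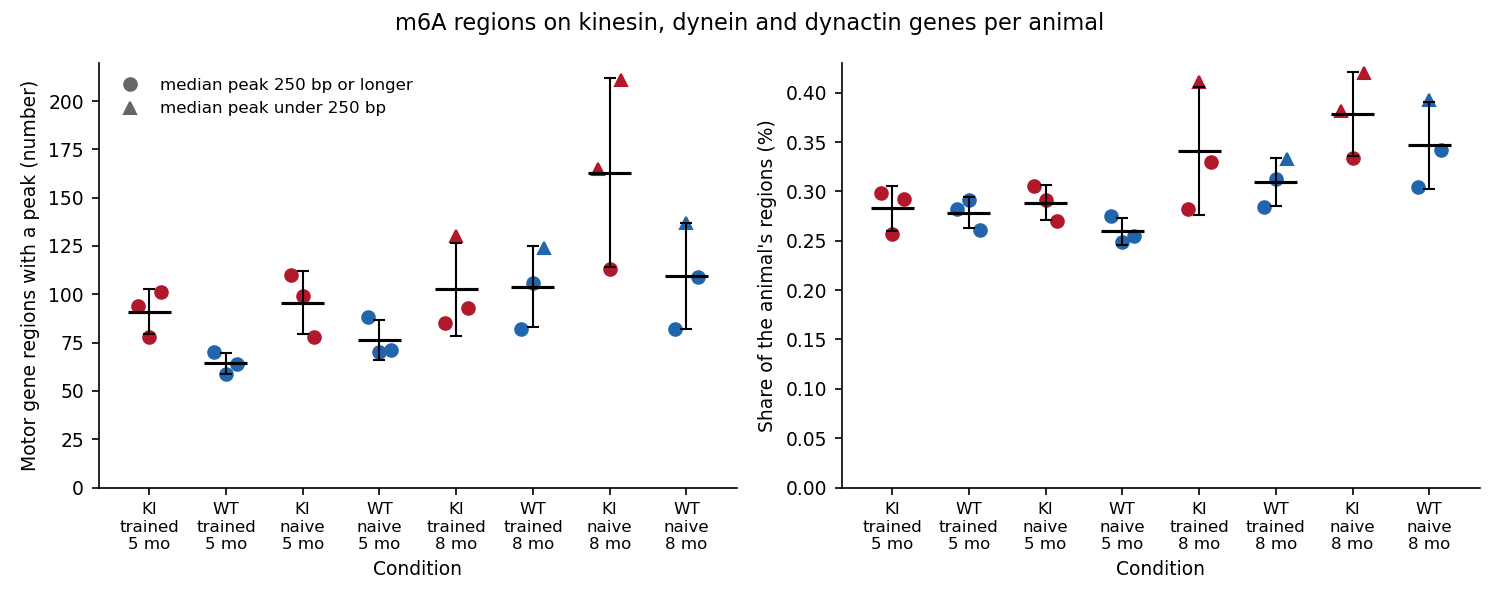
Number of peak regions on kinesin, dynein and dynactin genes in each of the 24 mice, by condition, with the mean of each condition. The highest values, up to 211 regions, belong to 8-month mice whose peaks were short, and the lowest value, 59, to a trained WT mouse of 5 months.

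Few of the regions were found in every mouse, and many were found once. Of the 310 motor gene regions, 99 (31.9%) were called in a single mouse, against 25.7% of all regions, and 189 (61%) in 1 to 5 mice, against 52.1%. A core of 33 (10.6%) was called in all 24 mice, against 14.9% of all regions, and leaving out the 5 mice with short peaks left the core at 33. It lay on 20 genes, each therefore marked in every mouse, while 26 genes were marked in 1 to 23 mice. No region was called on 9 genes, namely Dync1i2 and Dync2li1, which encode a dynein intermediate chain and a light intermediate chain of the ciliary dynein, and Kif12, Kif18a, Kif18b, Kif23, Kif2b, Kif2c and Kif4-ps. Several of these kinesins act in mitosis, and 13 regions on 5 of the 8 mitotic kinesin genes included 0 of the core.

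The strength of a peak was its fold enrichment, the IP signal over the input at the peak as the authors' peak caller gave it. Over the 33 core regions the mean per region ranged between 2.42 and 11.04 with a median of 5.89, against a median of 5.91 and a range of 1.66 to 20.6 in the other 12154 regions called in all mice. Among kinesin-1 heavy chains, the main motors of fast axonal transport, Kif5c had the most regions (14) and the family's 1 core region, in the 3′UTR, at 2.74 ± 0.30 (SD, n = 24, 2.32 to 3.40). It was among the weakest of the core, and its values spread little between mice. Kif5a had 10 regions and Kif5b had 3, none of them in the core. Among the light chains, which bind cargo, Klc1 had the most regions (8), but the only core region was in the coding sequence of Klc3 (6.62 ± 1.85, SD, n = 24). That region overlaps Ercc2, and peaks carry no strand, so the 2 genes cannot be told apart there.

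The kinesin-2 family serves axons, dendrites and cilia, and 3 of its 4 genes were marked in every mouse. Kif17, which carries NMDA receptor vesicles into dendrites, had 16 regions, of which a 3′UTR region was the strongest core region of the family (7.65 ± 2.00, SD, n = 24, 4.51 to 13.8). Kif3b had 3 core regions, with 5.29 ± 1.03 in its coding sequence (SD, n = 24), while Kif3c had the weakest of the whole core (2.42 ± 0.47, SD, n = 24). The kinesin-3 family held 67 regions and 9 of the 33 core regions. Kif13a had the most (17), and the coding region of Kif16b, a motor of early endosomes, was the strongest (8.17 ± 3.69, SD, n = 24) and varied between 3.38 and 18.3. Kif1a, the motor of synaptic vesicle precursors, had 15 regions and none in the core, whereas Kif1b had 7 regions and 2 in the core.

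Among kinesin-4 proteins, Kif21b had the most regions (13), and the strongest core region was in the coding sequence of Kif27 (9.77 ± 2.77, SD, n = 24). Kif7, a regulator of Hedgehog signalling at the cilium, had 9 regions and a core intron region at 8.64 ± 2.15 (SD, n = 24) that overlaps 9330171B17Rik. Kif26a, an atypical kinesin, had the strongest core region of all, in its coding sequence at 11.04 ± 3.36 (SD, n = 24). That region is 3086 bp wide, each mouse gave its strongest peak in it, and the part of width in this rank was not tested. Kif26b had 18 regions, among them a 3′UTR region at 7.10 ± 2.36 (SD, n = 24). The kinesin-13 microtubule depolymerases had 6 regions and none in the core.

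For the retrograde motor, the heavy chain gene Dync1h1 had a core region at its start (6.34 ± 1.99, SD, n = 24) and another in its coding sequence (3.22 ± 0.60). The region at the start overlaps the gene, but its summit lay outside the annotated gene body. Both light intermediate chains had a core 3′UTR region, at 4.56 ± 0.75 in Dync1li1 and 2.5 ± 0.70 in Dync1li2 (SD, n = 24 each). The intermediate chain gene Dync1i1 had the most regions of the complex (12), with none in the core. The ciliary dynein heavy chain Dync2h1 had 19 regions, more than any other gene here, and its strongest at 9.67 ± 2.46 (SD, n = 24) overlaps Dcun1d5. In dynactin, Dctn1, which encodes the microtubule-binding p150Glued, had 13 regions and none in the core, while Dctn5 of the pointed-end complex had the only core region of the complex (3.31 ± 0.59, SD, n = 24), which also overlaps Gm15489.

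The GGAC copy nearest to the summit is printed below for some of the core regions, so that the letters under these peaks can be read beside their values. Later results return to the printed regions of Kif1b, Kif16b, Kif3b, Dync1li1 and Dync1li2. For Kif17 and Kif26b the later results are on other regions than those printed. Each line is the transcribed strand, 5′ to 3′, read from NCBIM37 (mm9), with GGAC in capitals.
Kif1b coding region: gggatgtctgGGACactgttggggt
Kif1b 3′UTR region: cctctagcaaGGACagctaagtcct
Kif16b coding region: agcagccatgGGACagggtagagct
Kif3b coding region: gggtcaatgaGGACccaaaggatgc
Kif17 3′UTR region: tgtggaagttGGACtacacttctca
Kif26b 3′UTR region: gacttcagcaGGACaccgccctccc
Dync1li1 3′UTR region: gactgcagtaGGACtaggcgatcct
Dync1li2 3′UTR region: gatgtcccttGGACtcttgggctgc
Dctn5 3′UTR region: cgtctgaggaGGACagaaaggtctg
They lie at chr4:148612177-148612201, chr4:148610096-148610120, chr2:142445490-142445514, chr2:153143050-153143074, chr4:137857522-137857546, chr1:180862401-180862425, chr9:114632922-114632946, chr8:106944256-106944280 and chr7:129292059-129292083, in the order of the lines. Both Kif1b lines, Kif16b and Dync1li2 are on the minus strand and the others on the plus strand. The methylatable A lay 1 base from the summit in the Kif1b coding region, 12 bases in Kif16b, 14 bases in Dync1li1, and 179 bases in the Kif1b 3′UTR region, where it was the 1 GGAC of the region. In the other lines the A lay before the summit, at -15 bases in Kif17, -26 in Kif26b, -78 in Kif3b, -81 in Dync1li2 and -89 in Dctn5.

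GGAC was no commoner at motor gene summits than elsewhere. Among the 29 core regions on 1 gene only, 12 (41.4%) had GGAC on the transcribed strand within 100 bp around the summit and 6 (20.7%) on the other strand. For the 9956 core regions of other genes the shares were 48.6% and 25%. Among regions called in 1 to 5 mice, 34.1% of 185 motor gene regions had it on the transcribed strand and 31.4% on the other, against 33.5% and 25.2% of 30824 regions of other genes. The gap between the strands was thus wide in the core and narrow in the rarely called regions of these genes. A match of 4 letters is a description and not a methylated site.

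Position in the transcript separated the core more clearly. Of 32 core regions with the summit in a gene body, 17 were in coding sequence, 11 in a 3′UTR, 4 in introns and 0 in a 5′UTR. For other genes the shares were 51.4%, 29.7%, 14.7% and 4.17%, close to these. Of the 189 regions called in 1 to 5 mice, 104 (55.0%) were coding, against 37.0% in other genes. The exon under the summit of a coding region had a median length of 1127.5 bp in the core (n = 16), and 14 of 16 (87.5%) were longer than 400 bp, against 1469 bp and 95.1% in other genes. In coding regions called in 1 to 5 mice the median exon was 180.5 bp (n = 104) and 8.65% were longer than 400 bp, against 165 bp and 11.9% in other genes. Core regions sat in the exon with the stop codon in 16 of 29 cases (55.2%, against 57.1% in other genes), and rarely called regions in 5.41% (against 11.1%). The coding regions found in every mouse thus lay mostly in long exons, and those found in few mice mostly in short ones, in motor genes as in other genes. Introns held 36.0% of the rarely called motor regions, against 49.2% of those of other genes.

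**Figure D2:**
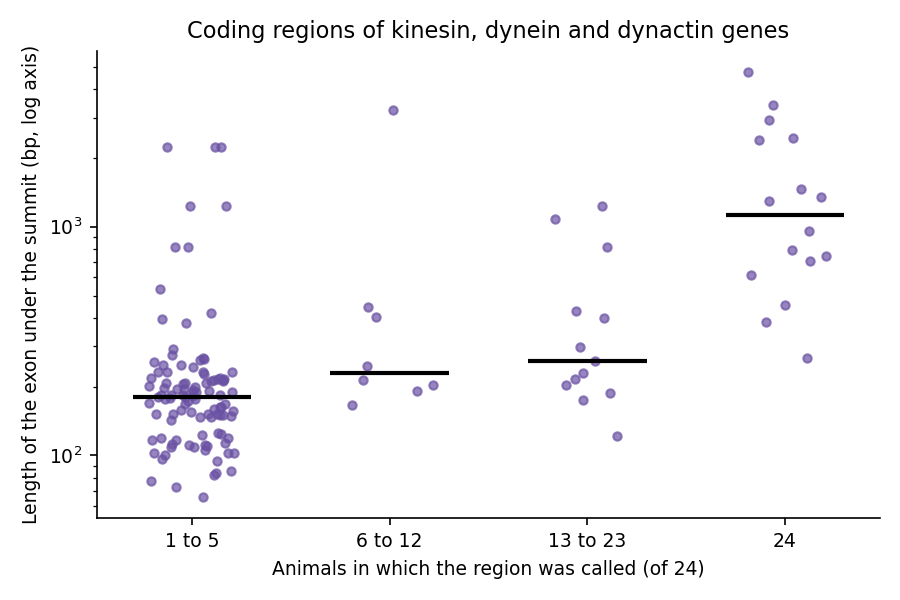
Length of the exon under the summit (bp, log axis) for each coding region of the motor genes, grouped by the number of mice in which it was called, with the median as a line. The medians are 180.5 bp for 1 to 5 mice, 229.5 bp for 6 to 12, 259 bp for 13 to 23 and 1127.5 bp for all 24.

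Between the 20 genes marked in every mouse and the 9 marked in none, 26 genes differed between mice. Klc4 was marked in 3 of 3 naive KI mice of 8 months, in 1 naive WT and 1 trained KI mouse of that age, and in no other. Kif3a, a subunit of the heterotrimeric kinesin-2, was marked at 5 months in 3 of 3 naive KI mice but 0 of 3 naive WT mice, and over all conditions in 7 KI and 4 WT mice. Dctn2, which encodes dynamitin, was marked in 10 of 12 KI and 5 of 12 WT mice, with 3 of 3 against 0 of 3 in the naive mice of 5 months. Kif5a was marked in 10 KI and 7 WT mice, and Kif9, a ciliary kinesin, in 8 KI and 4 WT mice. Only Dctn4, Kif20a, Kif22 and Kif4 were marked in more WT than KI mice, among them Kif22 in 5 KI and 8 WT mice. Regions of all genes leaned the same way. Of the 629 with an unadjusted p under 0.05 by genotype in Fisher's exact test on calls, 605 were called more often in KI mice. How many of all genes were marked in more KI than WT mice was not counted. The peak lists were also longer on average in KI than in WT mice in every pair but the trained mice of 8 months, and the part of this yield was not tested.

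**Figure D3:**
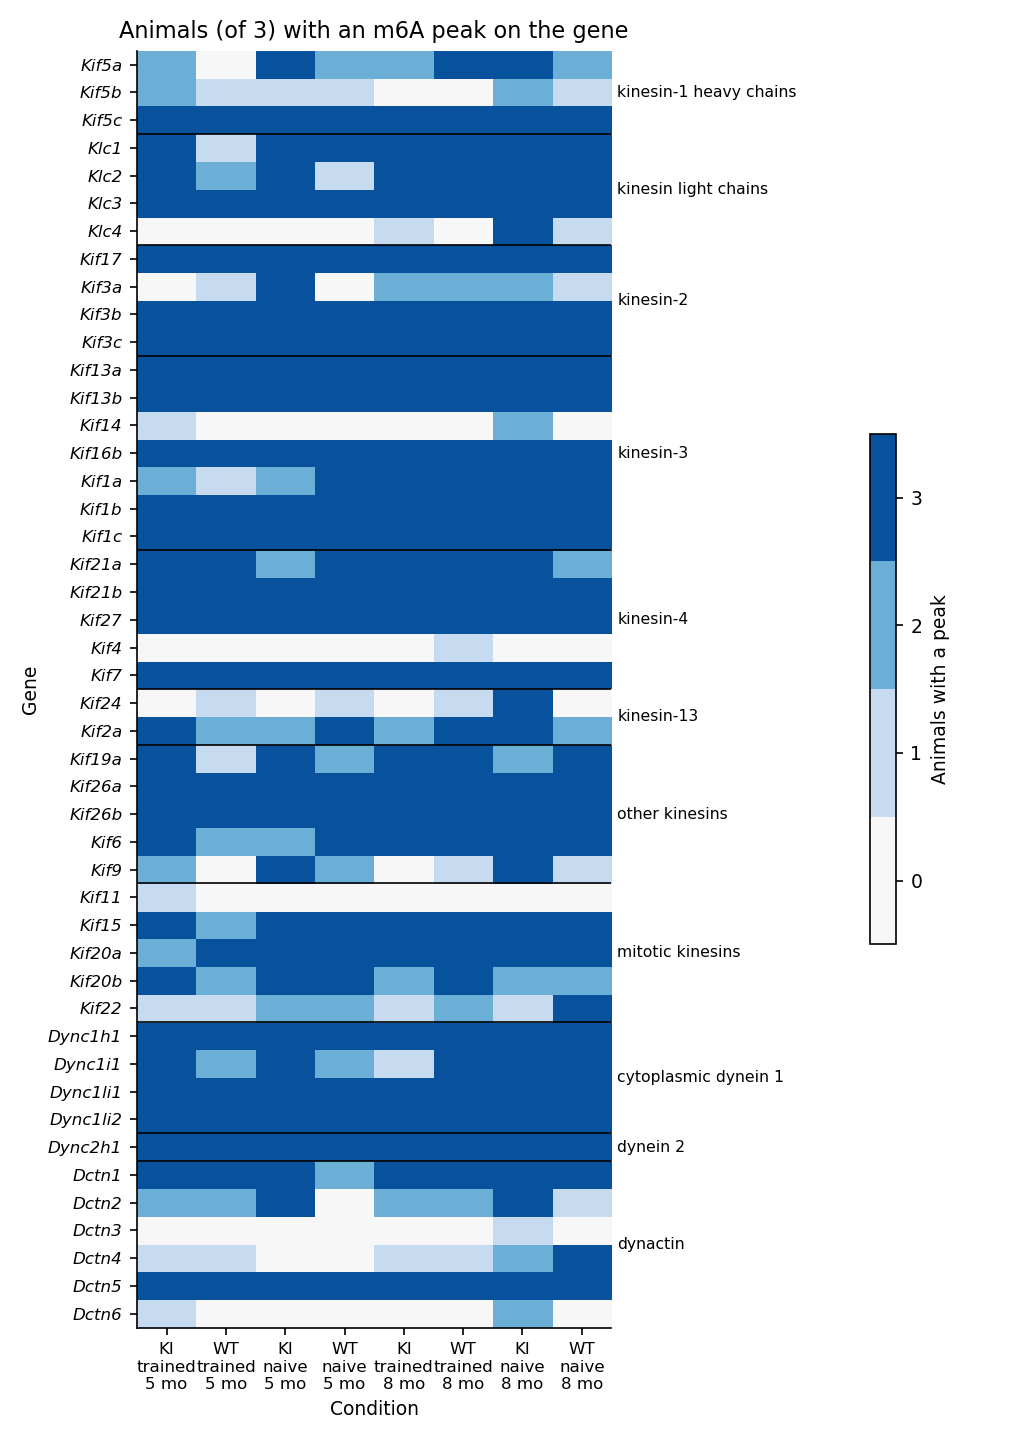
Number of mice of 3 in which each of the 46 motor genes with a region carried a peak, by condition. The 20 genes marked in all 24 mice fill every cell with 3, and Klc4 has 3 only in naive KI mice of 8 months.

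To ask whether the strength of the marks differed by genotype, training or age, fold enrichment was compared on the log2 scale in the 12187 regions called in all 24 mice, each mouse centred on its median, with limma and Benjamini-Hochberg adjustment over all of them. No motor gene region passed an adjusted p of 0.05 in any of the 13 comparisons. The background was just as low. For KI against WT mice, 0% of all regions passed in each of the 4 pairs of groups and in their mean, and for 8 against 5 months and for the 2 differences in training change between KI and WT also 0%. For trained against naive mice it was 0% in each of the 4 pairs and 0.00821% (1 region, lower in trained mice, not on a motor gene) in their mean. At an unadjusted p under 0.05, 0 to 3 of the 33 motor regions fell in each comparison, beside 375 to 946 of all regions.

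The lowest unadjusted p belonged to the coding region of Kif16b. Its fold enrichment was 3.38 to 10.6 with a median of 6.24 in 12 trained mice, against 4.28 to 18.3 with a median of 9.92 in 12 naive mice, so the groups overlapped. The log2 difference was -0.68 (SE 0.19, adjusted p = 1, limma). In KI mice of 8 months the trained animals had 5.06, 6.81 and 6.05, all below the naive animals at 9.39, 18.3 and 10.7. The 4 pairs did not all run the same way, with log2 differences of -1.05 in KI mice and -0.77 in WT mice of 8 months and of 0.15 in KI mice and -1.05 in WT mice of 5 months. The training change of KI minus WT mice of 5 months was 1.20 (SE 0.55, adjusted p = 0.999, limma). The other coding region of Kif26a was 3.47 to 15.2 with a median of 7.55 in mice of 8 months, against 3.16 to 12.3 with a median of 4.06 in mice of 5 months, a log2 difference of 0.64 (SE 0.21, adjusted p = 0.408, limma). Dync1li2 had 3.56, 2.01 and 4.04 in its 3′UTR in trained KI mice of 8 months, against 1.93, 1.68 and 2.02 in trained WT mice, a log2 difference of 0.70 (SE 0.29, adjusted p = 0.998, limma). The groups of Dync1li2 nearly separated, with 1 KI value just under the highest WT value. Its training change differed between KI and WT mice of 8 months by 1.14 on the log2 scale (adjusted p = 0.771, limma). In naive mice of 5 months, the coding region of Kif26b had 4.81, 5.49 and 5.73 in KI mice, all below the 11, 7.56 and 7.87 of WT mice (log2 difference -0.69, SE 0.28, adjusted p = 0.999, limma). In naive mice of 8 months, the coding region of Kif13b had 4.15, 6.36 and 5.77 in KI mice, again all below the 7.63, 10.6 and 7.54 of WT mice (log2 difference -0.69, SE 0.26, adjusted p = 0.895, limma). The share of all core regions in which the groups of a pair separate fully, as in Kif16b, Kif26b and Kif13b here, was not counted. Whether such a separation is particular to these genes thus cannot be said.

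Whether a region was called at all was tested with Fisher's exact test on 12 against 12 mice, over the 35110 regions called in 3 to 21 mice, of which 129 lay on motor genes. None of the 129 passed after Benjamini-Hochberg adjustment by genotype (background 0.00285%, the Htt region), training (0%) or age (0%). The Htt region, with 12 of 12 KI and 0 of 12 WT mice, reached an adjusted p of 0.026 (Fisher's exact test). A region with a smaller split could pass only along with many others like it, so the lack of calls says little. Among motor regions the clearest genotype difference was an intron region of Kif6, a kinesin of motile cilia, at chr17:50017750-50018103. It was found in 8 of 12 KI mice but 0 of 12 WT mice (two-sided Fisher's exact p = 0.00135, adjusted p = 1), with 1 of 3 trained and 2 of 3 naive KI mice of 5 months and 3 of 3 trained and 2 of 3 naive KI mice of 8 months. Called peaks had a fold enrichment of 4.47 to 6.03. For training, an intron region of Dync2h1 at chr9:6978780-6979488 was called in 4 of 12 trained and 11 of 12 naive mice (Fisher's exact p = 0.00942, adjusted p = 1), and an intron region of Kif7 in 5 trained and 11 naive mice (p = 0.0272, adjusted p = 1). With every mouse held to the same number of best peaks, the Kif6 region was called in 0 KI and 0 WT mice, the Dync2h1 region in 2 trained and 4 naive mice and the Kif7 region in 2 trained and 5 naive mice. No motor region then had an unadjusted p under 0.05 by genotype, and the 2 that did by training were both called more often in trained mice. For age, 20 of 129 regions had an unadjusted p under 0.05 (3440 of 35110 for all genes), and all 20 were called more often at 8 months, as were 3111 of the 3440. The smallest adjusted p was 0.256, for a Kif13a coding region and a Kif26b intron region called in 7 of 12 mice of 8 months and 0 of 12 of 5 months. With the same number of best peaks, 4 of 67 motor regions had an unadjusted p under 0.05 by age (1384 of 22659 for all genes), of which 3 were called more often at 8 months (686 of the 1384). Without the 5 mice with short peaks 4 of 133 did (1749 of 43573 for all genes).

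Within a pair of conditions, a few regions were called in all 3 mice of one and none of the other. In naive mice of 5 months, 3 regions were called in KI mice only, on Dctn2 (5′UTR), Kif3a (coding) and Kif7 (coding), and 0 in WT mice only, of 94 motor regions called in at least 2 mice of a group. The background was 1.16% for KI only and 0.196% for WT only. The Dctn2 peaks had a fold enrichment of 2.60, 1.96 and 1.85 in KI mice, the Kif3a peaks 3.72, 1.70 and 3.99, and the Kif7 peaks 4.48, 3.89 and 4.19. All 9 values were below the median of the core regions. With every mouse held to the same number of best peaks, the counts were 0 in KI mice only and 2 in WT mice only.

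In naive mice of 8 months the 3 regions in KI mice only were on Dctn1 (coding), Klc1 (3′UTR) and Klc4 (coding), with 0 in WT mice only. These were of 163 motor regions called in at least 2 mice of a group, beside a background of 1.82% and 0.0606%. The share in KI mice only was thus near the background. The Klc4 peaks, which overlap Gm16736, had 2.44, 2.7 and 7.75, and were seen in no other condition. The Dctn1 peaks had 1.73, 1.52 and 2.06 and the Klc1 peaks 2.04, 1.51 and 1.73. In trained mice of 5 months an intron region of Klc1 that overlaps Xrcc3 was called in KI mice only, with 3.05, 2.71 and 2.5 (1 of 80 motor regions, background 2.77%), and 0 in WT mice only (0.0418%). In trained mice of 8 months the Kif6 intron region was called in KI mice only, with 4.70, 5.77 and 5.27 (1 of 108 motor regions, background 0.193%), and a 5′UTR region of Kif5a in WT mice only, with 2.23, 1.73 and 1.55 (1 of 108, background 0.921%). The direction of the genotype difference in the background thus turned in trained mice of 8 months.

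For training, 0 of 76 motor regions of WT mice of 5 months were called in trained mice only (background 0.0765%) and 1 in naive mice only (1.68%), an intron region of Kif3b with 3.42, 5.23 and 2.09. In KI mice of 5 months a coding region of Kif17 was called in trained mice only, with 8.51, 5.78 and 6.06 (1 of 100 motor regions, background 0.485%). Regions of Kif26a and Kif3a were called in naive mice only (2 of 100, background 0.594%), and the Kif26a coding peaks had 3.64, 4.23 and 5.65. The Kif3a region was the same one that separated naive KI and naive WT mice. In WT mice of 8 months neither direction held any of 111 motor regions (background 0.879% and 0.281%). In KI mice of 8 months 0 of 158 were called in trained mice only (background 0.0635%) and 4 in naive mice only (2.37%), a share near the background. These were the Klc4 coding region, the Kif5a 5′UTR region (1.86, 2.47 and 1.73), a Kif5c coding region (1.79, 1.74 and 1.82) and the Dync2h1 intron region (7.81, 7.22 and 4.5). Naive KI mice of 8 months also had the longest peak lists, and the count was 1 when all mice were held to the same number of best peaks.

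The authors' own comparison of conditions was deposited as 10 tables, which hold the peaks that passed their p-value threshold of 0.05, each with the mean level of 2 groups as log2 of a normalised read count. Levels below are those means, differences are between them, and no SD comes with them. The paper was stricter for the peaks it reported as differential. These had to hold after correction for multiple testing and to change by more than 1 on the log2 scale, up or down. A peak listed here is thus not always one that the paper counts as differential. The 8 tables of 3 against 3 mice listed 174 peaks on 33 motor genes. Among motor regions called in at least 2 mice of a group, KI mice were higher in 11 and lower in 12 of 94 when naive at 5 months (11.7% and 12.8%, background 6.04% and 12.4%). They were higher in 13 and lower in 4 of 163 when naive at 8 months (7.98% and 2.45%, background 10.2% and 5.84%). Among trained mice KI were higher in 9 and lower in 2 of 80 at 5 months (11.2% and 2.5%, background 14.2% and 3.88%), and higher in 16 and lower in 7 of 108 at 8 months (14.8% and 6.48%, background 11.7% and 8.41%). The shares lay near the background, with the widest gap for peaks higher in naive KI mice of 5 months.

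Most listed motor peaks of the training tables were lower in trained mice. Trained WT mice of 5 months were higher in 4 and lower in 19 of 76 regions (5.26% and 25%, background 3.28% and 17.2%), and trained KI mice of that age higher in 11 and lower in 18 of 100 (11% and 18%, background 11.3% and 11.1%). At 8 months trained WT mice were higher in 10 and lower in 13 of 111 (9.01% and 11.7%, background 11.5% and 11.7%), and trained KI mice higher in 11 and lower in 16 of 158 (6.96% and 10.1%, background 7.93% and 9.52%). The 2 tables that pool both genotypes gave 12 higher and 1 lower of 103 at 5 months (background 5.95% and 5.6%), and 12 of each of 169 at 8 months (background 8.22% and 8.96%). The pooled table of 5 months goes against its label at Htt, where its naive column is near the level of WT mice alone. Exchanging its columns would not mend this, since the Htt intron peak was called in 12 of 12 KI mice, trained and naive. Which mice went into its columns, and so the direction of its values, is thus not certain.

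**Figure D4:**
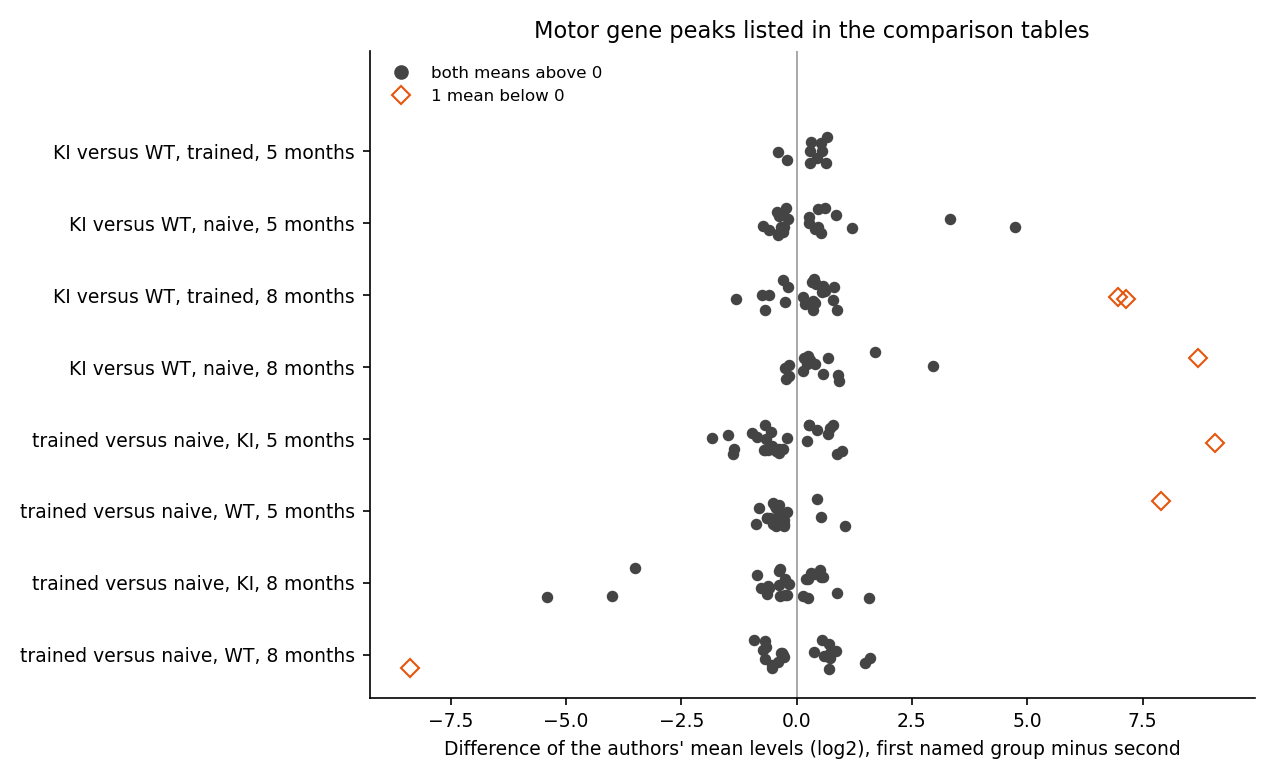
Difference between the authors' mean levels (log2, first named group minus second) for each of the 174 motor gene peaks listed in the 8 tables of 3 against 3 mice. Most lie within 1 of 0, and the 6 open symbols, where 1 mean is below 0, make up the points beyond 6 in either direction.

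Differences of 1 or more were found in 23 of the 174 listed peaks, and the largest had a mean near 0 in 1 group. In 6 peaks 1 mean was below 0, yet in all 6 the peak was called in at least 2 mice of that very group, and in 3 of them in all 3 mice. For the start of Dync1h1, the dynein heavy chain, the trained level was 8.79 and the naive level -0.27 in KI mice of 5 months (difference 9.06), while the trained level was -0.10 and the naive level 8.28 in WT mice of 8 months (difference -8.38). The region was called in all 24 mice, with a fold enrichment of 5.05, 6.04 and 5.91 in trained and 8.27, 8.72 and 9.64 in naive KI mice of 5 months, the opposite order. Kif5a had at 8 months a 3′UTR level of 8.58 in naive KI mice, against -0.13 in naive WT mice (difference 8.71), and 6.86 in trained KI and -0.10 in trained WT mice (difference 6.96). Yet its peak was called in 3 and 2 mice of the naive KI and WT groups, and in 2 and 3 mice of the trained KI and WT groups. Dctn2 had 7.04 in trained KI and -0.10 in trained WT mice of 8 months (difference 7.14) with the peak called in 2 mice of each, and the 5′UTR of Dync1li2 had 7.75 in trained and -0.14 in naive WT mice of 5 months (difference 7.89), also with 2 of each. Such levels were at odds with the calls in the same animals.

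Of the other differences some ran with the calls and some against them. In naive mice of 5 months Dctn2 had a level of 8.65 in KI and 3.92 in WT mice (difference 4.73), and the coding region of Kif7 had 5.95 in KI and 2.63 in WT mice (difference 3.32), both called in 3 KI and 0 WT mice. An intron region of Kif7 was also higher, at 6.40 in KI and 5.19 in WT mice. The lowest differences there were those of Kif19a (-0.73), Kif3c (-0.59, overlapping 1110002L01Rik) and an intron region of Kif5c (-0.43). Kif19a was nevertheless called in 3 KI and 2 WT mice, and the Kif5c intron region in 3 KI mice and 1 WT mouse. In naive mice of 8 months a coding region of Kif13a had 6.45 in KI and 3.5 in WT mice (difference 2.95), with the peak in 3 KI and 2 WT mice, and the Kif7 coding region 6.62 and 4.91 in KI and WT mice (difference 1.71). The lowest were an intron region of Kif17 (-0.24), the 3′UTR of Dync1li1 (-0.23), and 3′UTR regions of Kif1b and Kif1c (-0.16 each). In trained mice of 5 months the 3′UTR of Kif6 (0.67), the Klc1 intron region (0.64) and an intron region of Dync2h1 (0.55) had the largest positive differences, and the start of Dctn1 (-0.40) and the Kif17 intron region that overlaps Sh2d5 (-0.20) the only negative ones. The region at the start of Dctn1 had its summit outside the annotated gene body. In trained mice of 8 months Dync2h1 was higher in KI mice in an intron (0.87). The Klc1 intron region that had been higher in trained KI mice of 5 months was lower there, at 6.91 in KI and 8.22 in WT mice (difference -1.31), beside another Klc1 intron region (-0.75) and a Kif5c intron region (-0.68).

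After training, Klc4 had a level of 0.73 in trained and 6.13 in naive KI mice of 8 months (difference -5.40), and its peak was called in 0 trained and 3 naive mice. The Kif13a coding region had 2.5 in trained and 6.49 in naive KI mice (difference -3.99), with calls in 1 and 3 mice, and the 5′UTR of Dync1li2 0.41 in trained and 3.91 in naive mice (difference -3.5), with calls in 3 and 2 mice. Higher in trained KI mice of 8 months were an intron region of Kif5c (6.91 trained, 5.33 naive, difference 1.58), Dync2h1 (0.87) and Kif1b (0.58). The same Kif5c intron region was higher in trained WT mice of 8 months (7.56 trained, 5.97 naive, difference 1.59), followed by the Kif7 coding region (1.48) and an intron region of Kif21a (0.85), while an intron region of Kif26b (-0.93) and a coding region of Kif17 (-0.72) were lower. The fold enrichment of the Kif5c intron region did not separate the KI groups, with 2.5, 3.11 and 3.39 in trained and 3.99, 2.79 and 4.07 in naive KI mice. At 5 months the start of Dctn1 (10.93 trained, 9.87 naive, difference 1.06) was higher in trained WT mice, and an intron region of Kif1a (-0.87) and 2 Kif17 regions (-0.81 and -0.64) were lower. In trained KI mice of 5 months a coding region of Kif27 (0.99) was higher, and 4 regions were lower by more than 1. These were a Kif17 coding region (5.25 trained, 7.09 naive, difference -1.84), the Kif7 intron region (-1.49), a Kif26a coding region (-1.38) and another Kif17 coding region (-1.36), each called in 0 or 1 trained and in 3 naive mice. In the pooled table of 5 months the start of Dync1h1 (9.24), the Kif7 coding region (1.82), Dync1i1 (1.16) and the 3′UTR of Kif5c (-0.20) had the extreme differences as labelled. Which mice went into its columns is not certain, as given above. The same Kif7 coding region had -0.96 in the table of KI mice of 5 months, with calls in 1 trained and 3 naive mice. In the pooled table of 8 months the extremes were the Kif5c intron region (1.63), Kif21a (0.71), Kif1b (0.66), Kif13a (-3.39), Kif7 (-0.66) and Kif26a (-0.54).

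Kif1b was the only motor gene listed higher in trained mice in all 4 training tables of 3 against 3, which share no animals. The gene makes isoforms with different tails that carry mitochondria or synaptic vesicle precursors. In its coding core region the level in WT mice of 5 months was 12.81 when trained and 12.37 when naive (difference 0.44), and in KI mice of 5 months 13.11 and 12.39 when trained and naive (0.72). In WT mice of 8 months it was 13.01 when trained and 12.31 when naive (0.70), and in KI mice of 8 months 12.89 when trained and 12.35 when naive (0.54). The trained level was above the naive level in each table. In the 3′UTR core region the differences were 0.52 (11.10 trained, 10.58 naive) and 0.87 (11.18 trained, 10.31 naive) in WT and KI mice of 5 months. At 8 months they were 0.72 (11.12 trained, 10.40 naive) in WT and 0.58 (11.03 trained, 10.45 naive) in KI mice. In neither region did a difference between the means reach 1, the size of change that the paper asked of a differential peak. These 2 of 33 core motor regions compare with 53 of 12187 core regions of all genes (0.435%), and 15 regions of all genes were lower in all 4 tables. The 2 regions share an exon and are not independent, and Kif1b was singled out by this count, so no excess in motor genes can be read from it. Of all regions called in any number of mice, 75 of 81807 were higher in all 4.

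Both regions lie in the same exon, the last of transcript Kif1b-007 at chr4:148607843-148612592 on the minus strand. The exon is 4750 bp long with 1473 coding bases, and 1 of 5 protein-coding transcripts of Kif1b has it. The coding summit is 1071 bases before the stop codon and the 3′UTR summit 832 bases after it, and their GGAC copies are printed above. The 3′UTR of the longer transcripts, at chr4:148552626-148553332, was called in 9 of 24 mice and was in no training table. No difference in fold enrichment over input passed the test for training in this exon. In the 3′UTR region it was 3.91 to 9.28 with a median of 5.98 in 12 trained mice, against 3.44 to 7.56 with a median of 5.29 in 12 naive mice (log2 difference 0.16, SE 0.15, adjusted p = 1, limma). In the coding region it was 2.98 to 5.85 with a median of 4.74 in trained mice, against 2.92 to 5.74 with a median of 5.17 in naive mice (log2 difference -0.02, SE 0.14, adjusted p = 1, limma). The levels of the tables thus differed where the enrichment over input did not pass the test, and whether the amount of this transcript differed was not tested.

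**Figure D5:**
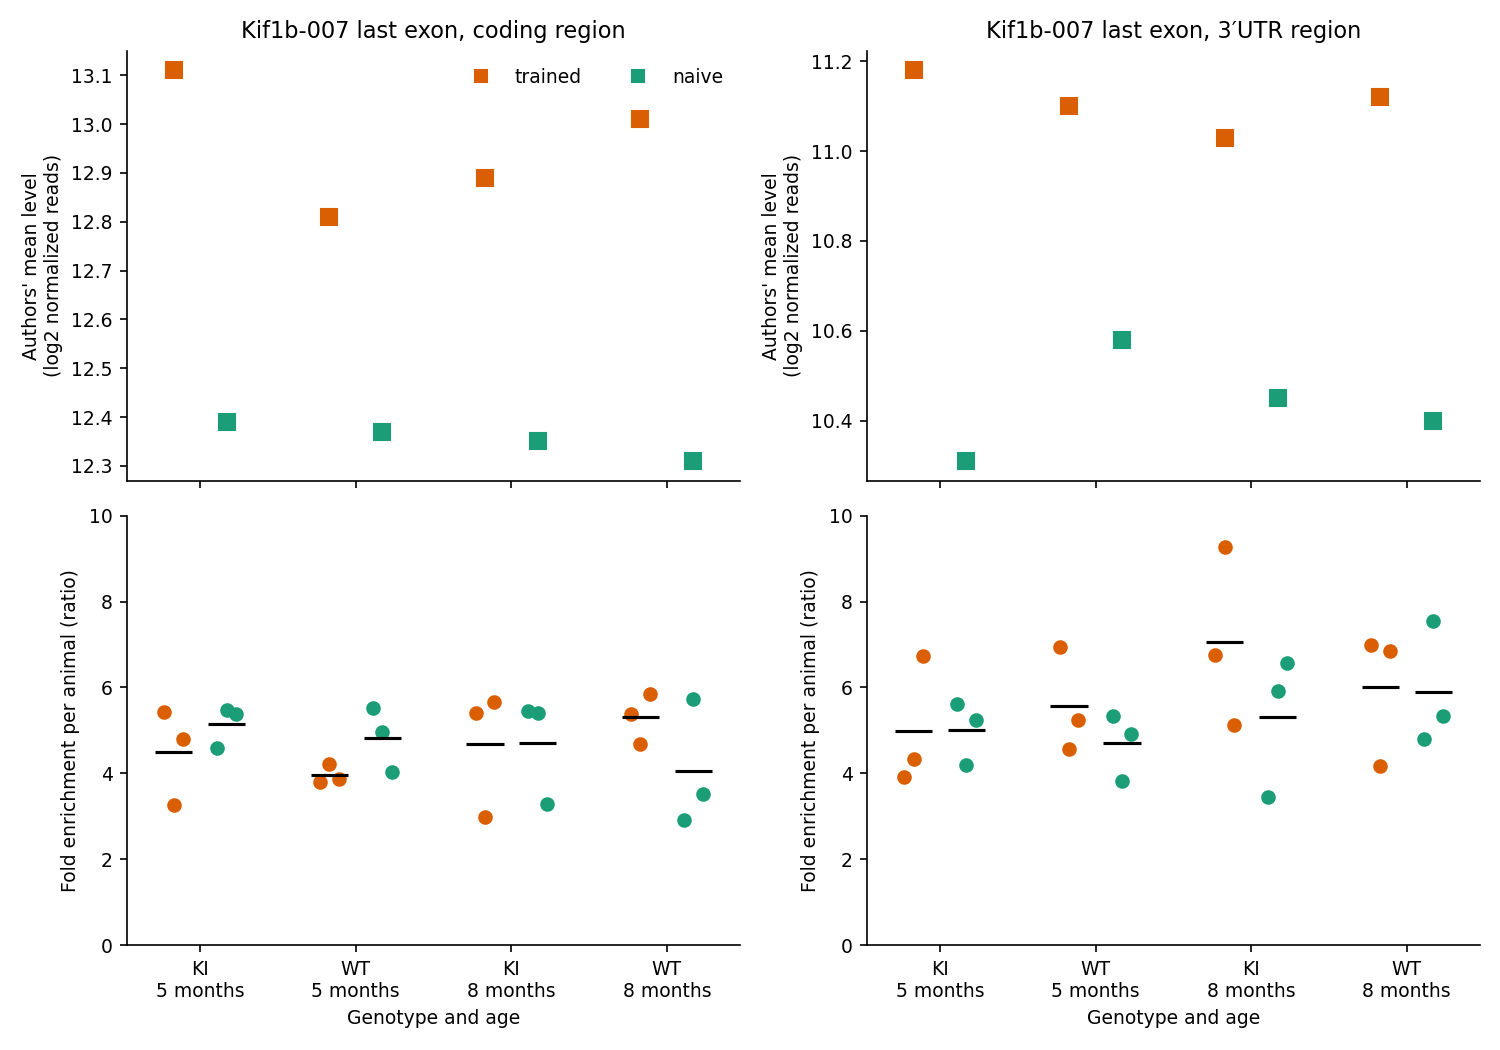
The 2 core regions of the Kif1b last exon, with the authors' mean level (log2) in trained and naive mice for each genotype and age and the fold enrichment over input of each mouse. The trained level is above the naive level in all 4 pairs of both regions, while the fold enrichment of trained and naive mice overlaps.

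Kif17 and Kif7 had the most listed peaks. As background, KI mice were higher in 58.2% of all peaks of the 4 genotype tables (48 of 73 motor peaks), and trained mice were lower in 58.1% of those of the 4 training tables (66 of 101 motor peaks). The genes below were picked after their values were seen, and 1 region can be listed in several tables. Kif17 was listed 25 times in the 8 tables, with KI mice higher than WT in 7 of 9 peaks and trained mice higher than naive in 2 of 16. Its coding region at chr4:137849411-137849836 was lower in trained mice in KI mice of 5 months, WT mice of 5 months and WT mice of 8 months (differences -1.84, -0.81 and -0.72). A neighbouring coding region, at chr4:137853262-137854225, was the exception, higher in trained mice in KI mice of 5 months (7.66 trained, 6.97 naive) and WT mice of 8 months (6.90 trained, 6.18 naive). Kif7 was listed 15 times, with KI mice higher in 7 of 7 peaks over all 4 genotype tables and trained mice higher in 1 of 8. The genotype and training tables share their groups of mice, so these counts are not independent of each other. Kif26b was higher in KI mice in 5 of 5 peaks, of which 3 are 1 coding region. That region had a level difference of 0.47 in naive mice of 5 months, whereas its fold enrichment was lower in KI mice there (log2 difference -0.69, given above).

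The other genes of the transport machinery showed as little, apart from Htt, which counts among the adaptors and carries the insertion of the KI mice. Its first-intron region, called in 12 of 12 KI and 0 of 12 WT mice, was the only region of any gene that passed Fisher's exact test by genotype. By training or age none passed. Of 41 adaptors and regulators of the motors, such as Hap1, Trak1, Bicd2 and Mapk8ip3, between 25 and 34 carried a peak in a mouse, 19 did in all 24, and Arl8b, Dynlt1f, Dynlrb1, Actr10 and Capza2 did in none. Of 22 microtubule-associated proteins, such as Map2 and Mapt, 18 to 22 carried a peak in a mouse and 15 did in all. Their core regions, 32 on 19 adaptor genes and 31 on 13 microtubule-associated protein genes, had 0 higher and 0 lower calls in limma (adjusted p of 0.05) over the comparisons by genotype, training and age. None was listed higher or lower in all 4 training tables.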

How the data were processed

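MeRIP-seq was done by the authors on the hippocampus of 24 mice. Per the labels and the study's methods, reads were aligned with STAR 2.7.3a to mm9, and peaks were called with MACS2 2.2.6 for each m6A-IP against the input of the same mouse. The deposited peak lists give a fold enrichment (a ratio of IP to input) and a −log10 q-value per peak. The authors compared conditions with DiffBind 2.8.0 and DESeq2, and the deposited tables give log2 mean levels of 2 groups for peaks at a p-value up to 0.05. Their fold changes, p-values and FDR were not used. Input libraries were not analysed here.

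Peaks of all mice were merged where they shared 1 bp or more, and genes, exons and sequences came from NCBIM37, in which 0 of 81585 regions on its chromosomes ran past an end (222 lay elsewhere). Fold enrichment of the strongest peak per region was tested with limma 3.58.1 (R 4.3.3, 1 fit of all 24 mice) and calls with Fisher's exact test (scipy 1.17.1), with Benjamini-Hochberg adjustment over all regions tested. Both were tested on simulated data. Motor genes were named where they passed a test, were among the 3 largest differences in each direction of a table, were called in 3 of 3 against 0 of 3 mice, led their family in regions or in enrichment, or had no region. A few others, among them Kif13b, Kif9, Kif22 and the summaries over all listed peaks of a gene, were chosen after their values were seen. All genes and lists were chosen with earlier results of these data known. Alternatives were a 50% reciprocal overlap, a −log10 q of at least 3, the same number of best peaks per mouse (22601), other normalizations and each mouse left out. Leaving out the 5 mice with short peaks was chosen after seeing the data.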

Additional observations from a re-analysis of the deposited data

Results flagged for a closer look

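In 1 core region, the coding region of Kif3b (chr2:153141882-153143407), the genotype difference ran opposite ways at the 2 ages in trained mice. Fold enrichment was 7.69, 7.41 and 5.36 in trained KI mice of 8 months, against 5.05, 4.47 and 5.53 in trained WT mice. At 5 months it was 5.59, 4.52 and 4.62 in trained KI mice, against 5.74, 5.02 and 4.90 in trained WT mice. After each mouse was centred on its median, every KI mouse was above every WT mouse at 8 months (log2 difference 0.42) and below at 5 months (-0.25), a gap of 0.668 that was not tested. The same pattern held in 55 of 12187 regions (0.451%).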

How the results depend on the processing

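No motor gene region passed in either test under any alternative or with any mouse left out. Of 275 values recomputed under alternatives, 219 kept their direction and stayed within the spread or within 1.5 times the count, 54 moved by more and 2 changed sign. In the limma fit, 1 region of all genes was called for trained against naive WT mice of 8 months without the 5 mice with short peaks, and 1 for trained against naive KI mice of 8 months with a 50% reciprocal overlap (0 otherwise). The 1 region of the mean training comparison became 0 with the reciprocal overlap, with median peak length as covariate, and without the 5 mice. The 1 region (Htt) called by genotype in Fisher's exact test became 0 with the reciprocal overlap, with regions of 1 to 23 mice, with a test stratified by the other 2 factors, and without the 5 mice. In all of these but the reciprocal overlap, the smallest adjusted p of any region was 0.0515, 0.439 and 0.236, in this order (exact tests). Even a full split of KI and WT mice did not pass there, so the lack of motor calls in those settings says little.

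Counts of motor regions in 3 of 3 against 0 of 3 mice changed most with the same number of best peaks. For KI only and WT only they became 0 and 2 in naive mice of 5 months, 0 and 1 in naive mice of 8 months, 0 in KI only for trained mice of 5 months and 0 in WT only for trained mice of 8 months. For trained only and naive only they became 0 in naive only (WT, 5 months), 2 and 0 (KI, 5 months), 1 in trained only (WT, 8 months) and 1 and 1 (KI, 8 months). With the reciprocal overlap they were 0 in KI only for trained mice of 5 months, 0 in KI only and 0 in WT only for trained mice of 8 months, 0 in naive only (WT, 5 months), 0 in trained only and 1 in naive only (KI, 5 months) and 0 in naive only (KI, 8 months). At a −log10 q of at least 3 they were 2 in KI only for trained mice of 5 and of 8 months, 0 in naive only (KI, 5 months), 1 and 1 (WT, 8 months) and 1 in trained only (KI, 8 months).

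Listed motor regions with a difference of at least 1, higher and lower, were 3 and 0 (KI against WT, naive, 5 months), 3 and 0 (naive, 8 months), 0 and 0 (trained, 5 months), 2 and 1 (trained, 8 months), 2 and 0 (trained against naive, WT, 5 months), 1 and 4 (KI, 5 months), 2 and 1 (WT, 8 months), 1 and 3 (KI, 8 months), and 3 and 0 and 1 and 1 in the pooled tables of 5 and 8 months. The training difference of the Kif1b coding region was 0.043 with the mean of the peaks in a region and 0.031 without the 5 mice (-0.02 as reported). The causes were not tested.

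With each mouse left out in turn, calls over all genes ranged from 0 to 9 by age, 1 to 1 by genotype and 0 to 0 by training in Fisher's exact test. The age count was 9 without 1 naive or 1 trained WT mouse of 8 months and 7 without 1 naive KI mouse of 5 months. In limma calls ranged from 0 to 2 for KI against WT naive mice of 8 months and for mean training, 0 to 1 for mean genotype, age, and training at 8 months in KI and in WT mice, and 0 to 0 otherwise. The log2 differences ranged from 0.473 to 1.01 (Dync1li2), -0.761 to -0.570 (Kif16b), 0.087 to 0.214 (Kif1b 3′UTR), -0.092 to 0.051 (Kif1b coding) and 0.538 to 0.779 (Kif26a). No paired analysis was possible because a replicate number is shared only by the IP and the input of 1 mouse, and the inputs were not analysed here.

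Precision is limited by 3 mice per condition and by a read depth that is not in the files, and mice with longer peak lists had more calls. Levels of different tables were not compared by a test.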
